A study of Mus musculus with 4 samples.

Results

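Ankib1, Trim24 and Usp3 are ubiquitin system genes whose transcripts gave circular RNAs in differentiated C2C12 cells, a mouse myoblast line that fuses into myotubes. The files held 22 distinct circles at these 3 loci, of 69136 in the whole series. They comprised 6 circles at Ankib1, 8 at Trim24 and 8 at Usp3. The files name transcripts and not genes, so the circles were taken from a window of the mm9 genome around each gene, on the gene's strand. They lay on chromosome 5 between 3722546 and 3772787, minus strand (Ankib1), on chromosome 6 between 37853533 and 37893633, plus strand (Trim24), and on chromosome 9 between 66387559 and 66414710, minus strand (Usp3). The hosts were chosen by the back-splice read counts of their circles in these same libraries, so levels and differences between RNA preparations are given for them as description.

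Back-splice junctions, where the end of a transcript segment is joined to its own start, had been counted in 4 libraries. Here the term is used for the junctions of exonic and intronic circles alike. The 2 control libraries (total RNA 1 and 2) came from untreated total RNA. The other 2 (RPAD 1 and 2) came from RNA taken through RNase R digestion, addition of poly(A) tails and removal of poly(A)+ RNA, which depletes linear molecules. All 4 carry the label C2C12 and share the same culture protocol, with 3 to 4 days in medium of 2% horse serum. The protocol text names HeLa RNA for the RNase R reaction, which was not resolved. The labels do not say that the 2 libraries of a preparation came from separate cultures, so their spread may be technical. The files hold no linear expression and no gene symbols, so markers of myotubes were not analysed here. In bulk RNA, fewer cells that make a circle and fewer copies per cell cannot be told apart.

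Ubiquitin is a small protein that ligases attach to other proteins and that deubiquitinases take off again. Attachment can send a protein to the proteasome or alter its activity or partners, and in skeletal muscle the system is best known for the breakdown of myofibrillar proteins. Ankib1 is a ligase with ankyrin repeats and a RING-between-RING module. Trim24 is a tripartite motif ligase that also reads histone marks and acts as a transcription cofactor. Usp3 is a ubiquitin-specific protease that removes ubiquitin from histones. Exonic circles arise when a downstream splice donor is joined to an upstream acceptor, and most contain exons 2 or later, because a first exon has no acceptor. Other ubiquitin genes were not analysed here, since 0 of the 8067 transcript names matched the gene tables at hand.

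Of the 22 circles, 15 were exonic and 7 were intronic, and 1 acceptor dominated at each host. At Ankib1 5 of 6 exonic circles began at exon 2, at Trim24 4 of 4 and at Usp3 4 of 5. Together 13 of 15 (86.7%) began at exon 2, against 25.4% of the 4059 other exonic circles of the series. These circles share hosts and acceptors, so they are not independent observations. By reads, circles beginning at exon 2 made up 100% of the exonic reads of the 3 hosts in both total RNA libraries, 99.7% in RPAD 1 and 99.1% in RPAD 2. For all other exonic circles the shares were 30.3%, 29.0%, 35.8% and 29.3% in the same order. Each host had 1 leading circle, and 11 of the 12 remaining exonic circles shared one of its outer edges.

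**Figure D1:**
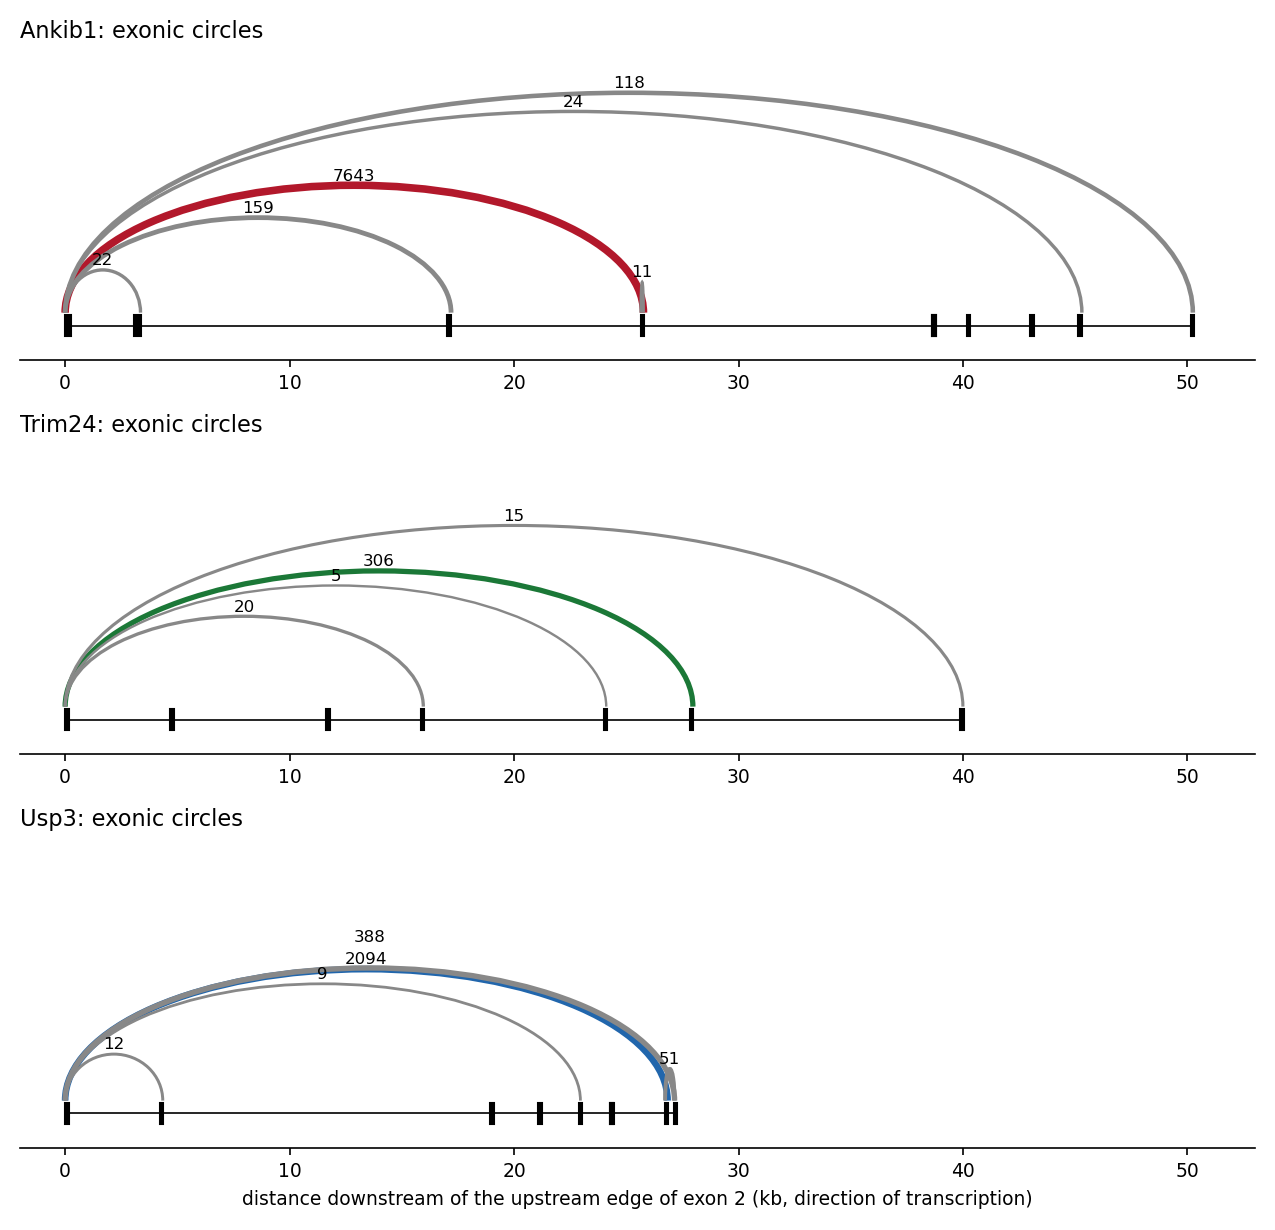
Exons (black boxes) and exonic back-splices (arcs) of the 3 hosts, drawn to scale along the gene in kb from the upstream edge of exon 2. Numbers give the reads of each circle summed over the 4 libraries, arcs are wider for more reads, and the leading circle is coloured (7643 reads for Ankib1, 306 for Trim24 and 2094 for Usp3). All arcs but those of 11 reads at Ankib1 and 51 reads at Usp3 start at exon 2.

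The leading Ankib1 circle joined exons 2 to 5 into 873 nt, from 3747021 to 3772787 on chromosome 5. Its exons measured 271, 301, 183 and 118 nt, and the same exon sizes were given in all 4 libraries. The first intron, 29809 nt long, lies upstream of it and an intron of 12836 nt downstream. Total RNA 1 and 2 held 252 and 117 of its reads, RPAD 1 and 2 held 3393 and 3881. Scaled to 1000000 back-splice reads per library (RPM), these are 6486 and 3252 against 22548 and 20293. The scale counts 1 junction per circle and was not corrected for length. Whether circle length altered detection was not tested. Both RPAD libraries lay above both total RNA libraries, and the total RNA pair differed more than the RPAD pair. The log2 fold change of RPAD over total RNA, relative to the other circles tested, was 1.78 (SE 0.87). Leaving out each library in turn gave 1.25 to 2.61, with the highest value without total RNA 1.

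**Figure D2:**
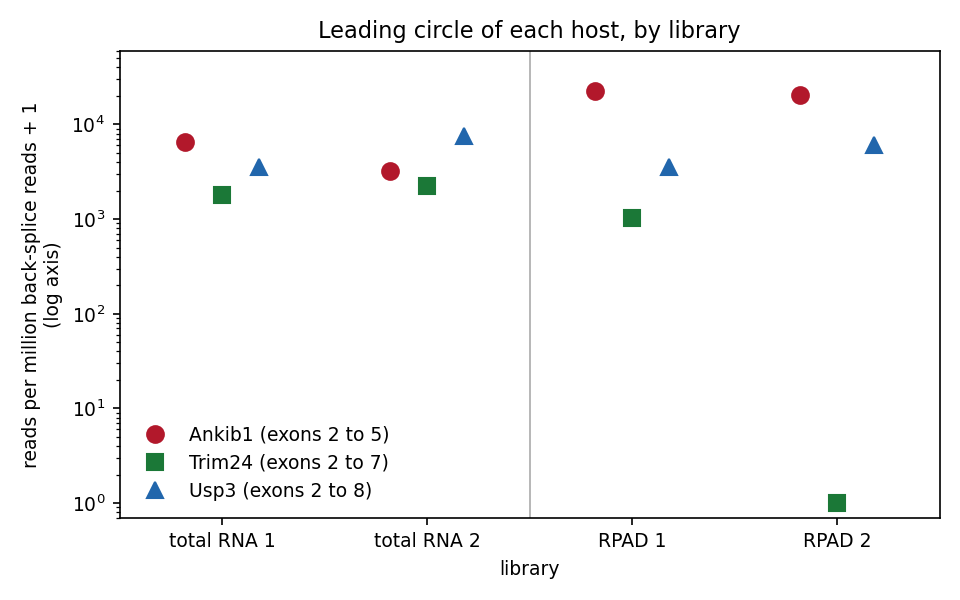
RPM (back-splice reads scaled to 1000000 per library) plus 1, on a log axis, of the leading circle of each host in each library, with 1 symbol per library and no error bar. Usp3 is highest in total RNA 2 and Ankib1 in the other libraries, and Trim24, with 0 reads in RPAD 2, sits at 1 there.

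Of the 5 other Ankib1 circles, 4 used the same exon 2 acceptor with different donors. The circle of exons 2 to 4 (755 nt) was read 16 and 4 times in the total RNA pair against 57 and 82 times in the RPAD pair. In RPM these are 412 and 111 against 379 and 429, which overlap, and it was the only other circle of the host in all 4 libraries. For the circle of exons 2 to 10 (9 exons, from 3722546) the total RNA pair gave 16 and 15 reads, RPAD 1 gave 0 and RPAD 2 gave 87, or 412, 417, 0 and 455 RPM. For the circle of exons 2 to 9 (1483 nt, from 3727489) the total RNA pair gave 21 and 3 reads, and neither RPAD library gave any. The long circles were thus present in both total RNA libraries, while RPAD 1 listed neither and RPAD 2 one of them. A circle of exons 2 to 3 (572 nt, 22 reads) and one of exon 5 alone (118 nt, 11 reads) appeared in RPAD 1 only. Exon 5 is the last exon of the leading circle, so the single-exon circle used the same donor.

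Within Ankib1 the leading circle took a larger share of exonic reads in RPAD RNA. It held 82.6% (95% exact Clopper-Pearson interval 77.9 to 86.7) and 84.2% (77.0 to 89.8) of the host's exonic reads in the 2 total RNA libraries. RPAD 1 and 2 had it at 97.4% (96.8 to 97.9) and 95.8% (95.2 to 96.4). Averaged per preparation this is 83.4% ± 1.10 against 96.6% ± 1.12 (SD, n = 2 each), a difference of 13.2 points with no overlap between groups. The exact two-sided permutation p was 0.33, the smallest that 2 libraries against 2 can give. The circles of 8 and 9 exons together held 12.1% (8.69 to 16.3) and 12.9% (7.86 to 19.7) of the host's exonic reads before RPAD. Afterwards they held 0% (up to 0.106) in the first library and 2.15% (1.72 to 2.64) in the second. That split by exon number was chosen after its values were seen. Weighted by reads, the mean length of an Ankib1 circle was 945 and 958 nt before RPAD and 867 and 886 nt after it, and whether length played a part was not tested. Intervals cover counting error only, since PCR copies were not marked.

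**Figure D3:**
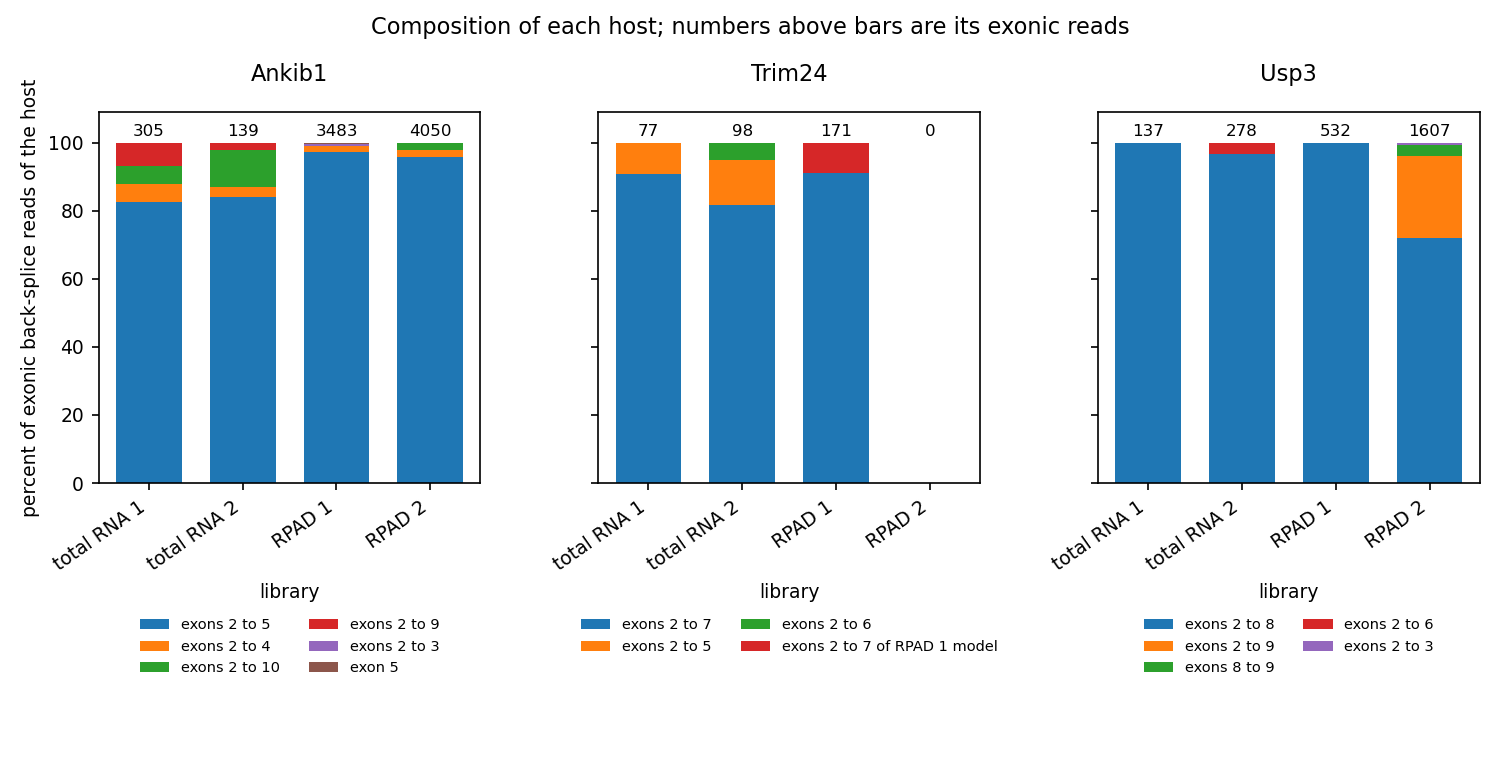
Share of each exonic circle in the exonic reads of its host (stacked bars, percent), by library, with the number of exonic reads above each bar. At Ankib1 the leading circle (exons 2 to 5) fills 82.6% and 84.2% of the total RNA bars and 97.4% and 95.8% of the RPAD bars. Trim24 has no bar in RPAD 2, and the circle of exons 2 to 9 of Usp3 appears in RPAD 2 alone.

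Trim24 was read in 3 of the 4 libraries. Its leading circle ran from 37853533 to 37881500 on chromosome 6 with 70 and 80 reads from the total RNA pair, 156 from RPAD 1 and 0 from RPAD 2. In RPM these are 1802, 2223, 1037 and 0, and the 0 in RPAD 2 allows up to 15.7 RPM (3 reads of 191246). Both RPAD values were below both total RNA values, and the RPAD libraries lay further apart than the total RNA libraries. The log2 fold change was -2.66 (SE 2.76), an error larger than the change. It was -1.72 without RPAD 2 and -10.25 without RPAD 1, where the one RPAD library left had 0 reads, so that the fitted size is no bound. With a replicate block it was -5.67. No circle of either type at Trim24 was listed in RPAD 2, the library with the most back-splice reads. The level of Trim24 circles after RPAD therefore rests on RPAD 1 alone.

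The contents of the leading Trim24 circle depend on the transcript model attached to it. The total RNA files gave 6 exons, 2 to 7, with 779 nt, while the RPAD 1 file gave 5 exons with 631 nt, since its assembled model lacks the 148 nt exon. The upstream intron was 32058 nt in the first case and 2802 nt in the second. Back-splice counts do not show which internal exons a circle holds. The circle of exons 2 to 5 (517 nt) was seen before RPAD only, with 7 and 13 reads. A circle of exons 2 to 6 (632 nt) had 5 reads in total RNA 2, and one of 749 nt that reached 37893530 had 15 reads in RPAD 1. All 4 shared the exon 2 acceptor, and the leading one took 90.9% (82.2 to 96.3), 81.6% (72.5 to 88.7) and 91.2% (85.9 to 95) of exonic reads in total RNA 1, total RNA 2 and RPAD 1. Those intervals overlap, and with no Trim24 reads in RPAD 2 the shares were not tested.

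Usp3 was read in all 4 libraries, with overlapping levels before and after RPAD. For its leading circle, from 66387869 to 66414710 on chromosome 9, the total RNA pair gave 137 and 269 reads, the RPAD pair 532 and 1156. In RPM these are 3526 and 7476 against 3535 and 6045. The groups overlapped, and the libraries of a pair differed by more than the pairs did. The log2 fold change was -0.31 (SE 1.15), and it was 0.50 without RPAD 1 and 0.037 with DESeq2, so its sign changed with the library set and the tool.

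In 3 libraries the leading Usp3 circle was assigned 7 exons and 670 nt, and in RPAD 2 it was assigned 6 exons and 538 nt, without the exon of 132 nt. The intron upstream was given as 25880 nt in 3 libraries and as 146 nt in RPAD 1, which used an assembled model. The transcript models therefore differ between libraries although the junction is identical. Of the 3482 assembled transcript names in the series 7.04% occurred in more than 1 library, against 33.2% of 4585 Ensembl-style names. Of 7 exonic circles of the 3 hosts listed in more than 1 library, 3 had differing exon sizes, against 10.6% of the 771 others. However, 3 of the 7 and 69 of the 771 were listed in all 4 libraries. A circle listed in more libraries has more chances to differ.

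RPAD 2 listed Usp3 circles that no other library had. A circle of exons 2 to 9 reached 66387559, beyond the end of the leading circle, and had 388 reads, or 24.1% (22.1 to 26.3) of the host's exonic reads there. It ends in the last exon, of 35 nt, of an assembled model, and the file gives no flanking intron downstream. The same model gave a circle of exons 8 and 9 (149 nt) with 51 reads, the one exonic Usp3 circle that shares no outer edge with the leading circle, and a circle of exons 2 and 3 (193 nt) with 12 reads. Total RNA 2 listed a circle of exons 2 to 6 (442 nt) with 9 reads. The leading circle thus held 100% (97.3 to 100), 96.8% (93.9 to 98.5), 100% (99.3 to 100) and 71.9% (69.7 to 74.1) of exonic reads, with the total RNA pair first. The difference of group means was -12.4 points (exact two-sided permutation p = 1), and without RPAD 2 it was 1.62 points.

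Intronic circles were few at these hosts, 7 of 22, against 65062 of the 69136 circles of the series. Over the series, exonic circles held 16179 of the 38850 back-splice reads of total RNA 1 and 91868 of the 191246 of RPAD 2. The hosts were chosen by back-splice reads, so nothing is read from this difference. Ankib1 had none in any library. Trim24 had 4, all in total RNA 1, with 5 reads in all, or 6.10% (2.01 to 13.7) of its back-splice reads there. Of these, 3 began at the same 5′ splice site, of intron 4 (37865298) and were 101, 107 and 127 nt long, and 1 lay in intron 8. Usp3 had 3, all in RPAD 2, with 4 reads in all, or 0.248% (0.0677 to 0.634) of its reads, and these shared the 5′ splice site (66395678) of the intron numbered 3 in their model. The 7 intronic circles had 1 or 2 reads each, so a difference between libraries was not detectable at this depth. The exact permutation p of the intronic share of Usp3 was 1.

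Set side by side within a library, the order of the 3 hosts was not constant. The leading Ankib1 circle had 1.84 times the reads of the leading Usp3 circle in total RNA 1 and 0.435 times in total RNA 2, so their order in total RNA differed between libraries. In RPAD 1 and 2 the ratio was 6.38 and 3.36. Trim24 was lowest in all 4 libraries, at 0.511, 0.297, 0.293 and 0 times Usp3. Among exonic circles of a library, the leading Ankib1 circle ranked 5 of 2067 and 15 of 1821 before RPAD, and 1 of 499 and 1 of 777 after it. Usp3 ranked 11 and 5 before RPAD, then 26 and 15. Trim24 ranked 26 and 22 before RPAD and 91 in RPAD 1.

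As a share of all exonic back-splice reads, Ankib1 held 1.89% (1.68 to 2.11) and 0.903% (0.760 to 1.07) before RPAD, against 6.22% (6.02 to 6.43) and 4.41% (4.28 to 4.54) after it. Usp3 held 0.847% and 1.81% before RPAD, against 0.950% and 1.75% after it, and the groups overlapped. Trim24 held 0.476% and 0.637% before RPAD, then 0.306% in RPAD 1 and 0% in RPAD 2 (at most 0.00327%, that is 3 reads). The 3 hosts together made up 3.21% and 3.35% of exonic reads before RPAD, against 7.48% and 6.16% after it. Ankib1 alone of the 3 had both RPAD shares above both total RNA shares. How many of all hosts did so was not counted, so nothing is read from this.

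**Figure D4:**
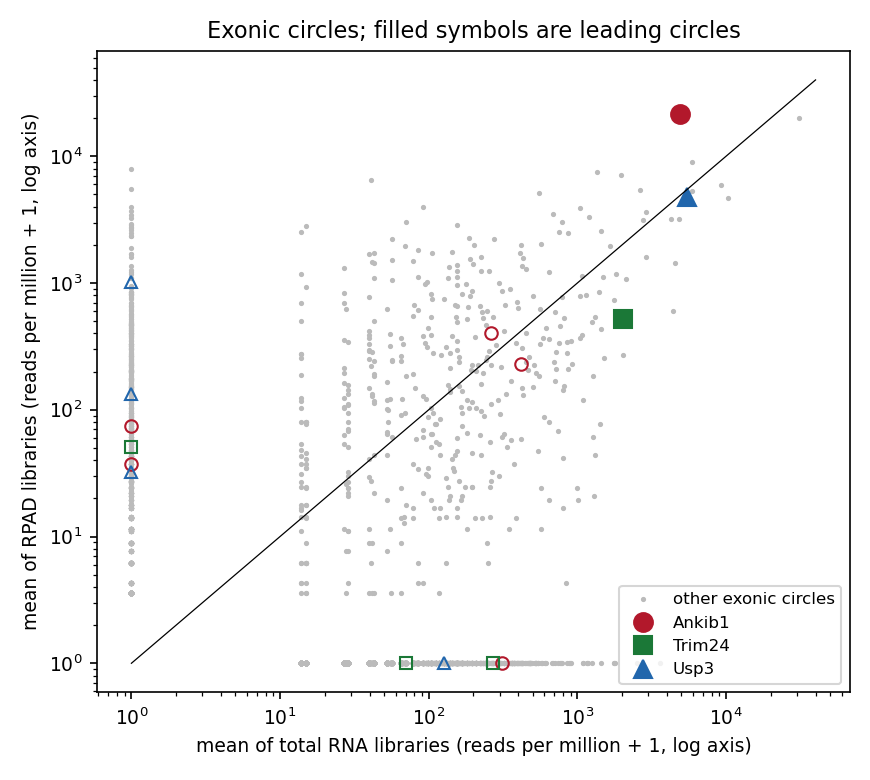
Mean RPM plus 1 of every exonic circle in total RNA (x, log axis) and in RPAD (y, log axis), with the line of equal values. Filled symbols are the leading circles and open symbols the other exonic circles of the 3 hosts. Leading Ankib1 lies above the line, leading Usp3 close to it and leading Trim24 below it, while 10 of the 12 open symbols sit at a value of 1 on an axis because that preparation had 0 reads.

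Across the whole table, 7 of the 22 circles passed the low-count filter of the abundance test, and all 7 were exonic. They were 4 circles of Ankib1, 2 of Trim24 and 1 of Usp3. Of these 7, edgeR called 0 at a Benjamini-Hochberg adjusted p under 0.05, against 0% of 924 circles tested. At an unadjusted p under 0.05 edgeR gave 2 of the 7 and 162 of the 924. By type these were 142 of the 462 exonic circles and 20 of the 462 intronic ones. DESeq2 called 1 of the 7 (the Ankib1 circle of exons 2 to 9) and 78 of the 387 circles with an adjusted p. The Ankib1 circle called had only 21 and 3 reads before RPAD. Its adjusted p was 0.0484 by DESeq2, close to the limit of 0.05, and 0.187 by edgeR. Its log2 fold change is set against 0 reads, so the fitted size is no bound. In RPM, 1 of the 7 (leading Ankib1) had both RPAD libraries above both total RNA libraries, against 10.7% of circles tested of both types. Another 3 had both below, against 24.9% (Ankib1 exons 2 to 9, leading Trim24, and Trim24 exons 2 to 5), and 3 overlapped. Ankib1 exons 2 to 9 and Trim24 exons 2 to 5 had 0 reads in both RPAD libraries. They passed the filter through the total RNA pair alone, which fixed their direction. The shares above and below over exonic circles alone were not counted. Since the hosts were chosen with these counts known, nothing is read from the split into above, below and overlapping. The median log2 fold change of the 7 was -0.80, beside -0.15 over all circles tested and -1.07 over the 462 exonic ones.

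Summed over each host, the log2 fold change was 1.67 (SE 0.51) for Ankib1, -2.52 (SE 2.71) for Trim24 and -0.12 (SE 0.93) for Usp3, beside a median of -0.94 over 1425 host groups. The Trim24 value was -1.46 without RPAD 2, -10.76 without RPAD 1 (again against 0 reads) and -5.61 with a replicate block. edgeR called 0 of the 3 and 0% of the host groups (376 at an unadjusted p under 0.05). DESeq2 called 0 of the 3 and 179 of the 1093 host groups with an adjusted p. With 1 RPAD library left out the spread rests on the total RNA pair. Without RPAD 1 edgeR called 4 of the 7 circles (184 of all) and 2 of the 3 hosts (537 of all). Without RPAD 2 it called 3 of the 7 circles (214 of all) and 0 of the 3 hosts (623 of all).

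The number of exonic circles listed per host did not separate the preparations. Ankib1 had 4 and 4 before RPAD, then 4 and 3 (exact two-sided permutation p = 1). Trim24 had 2 and 3 against 2 and 0 (p = 0.667 by the same exact test), and Usp3 had 1 and 2 against 1 and 4 (p = 1 by the same exact test). Of the 15 exonic circles, 8 (53.3%) were listed in 1 library, against 81.0% of the other exonic circles. In all 4 libraries 3 (20.0%) were listed, against 1.70% of the others. Which hosts were taken up depended on read number, and circles with more reads are listed more often, so this comparison describes the choice.

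With the longest model for each circle, the introns around these circles were long. The median intron upstream of an exonic circle was 29809 nt for the 15 of these hosts and 4412 nt for the others. That median restates the Ankib1 first intron, which 5 of the 15 circles share. The shortest models gave 2802 nt upstream of leading Trim24 and 146 nt upstream of leading Usp3. For the Usp3 circles of exons 2 to 9 and of exons 2 and 3, 146 nt was the only value. Of the 15, 13 began at exon 2, where the intron upstream is the first of the model, against 25.4% of the others. A comparison with only those others that begin at exon 2 was not made. Downstream the medians were 9307 and 3510 nt. With the longest model for each circle, the upstream introns of leading Ankib1, Trim24 and Usp3 lay at percentiles 88.4, 90.1 and 85.7 of the 3919 exonic circles with a value. Their downstream introns lay at percentiles 79.7, 78.4 and 74.2 of 3946. The leading circles were closer to the middle of all exonic circles in length, at percentiles 71.8, 67.3 and 61.1.

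No other circle lay close to these hosts on the same strand. The gap to the nearest one was 327226 nt at Ankib1, 446399 nt at Trim24 and 400635 nt at Usp3. On either strand the nearest circle was 39955 nt away at Ankib1 and 41803 nt away at Usp3. Each of the 3 sets of circles also formed exactly 1 group when transcripts were linked by shared junctions or introns, so the edges of the windows decided no value.

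Circles elsewhere with the most similar reads over the 4 libraries were found by Euclidean distance in log2(RPM + 1) among 1115 exonic circles. For leading Ankib1 the nearest was a single-exon circle on chromosome 4 from 83937597 to 83939566, at distance 2.10, with 268, 175, 935 and 2281 reads. Next was one on chromosome 5 from 107063850 to 107067654, at 3.01, with 110, 39, 997 and 1466 reads. For leading Trim24 the nearest was on chromosome 13 from 105084527 to 105104463, at 0.98, with 80, 71, 81 and 0 reads. The second was on chromosome 2 from 34287523 to 34299926, at 1.59, with 135, 192, 181 and 0 reads. The distance includes RPAD 2, so a 0 there in the circles most like Trim24 follows from the search. How many abundant circles had 0 reads in RPAD 2 was not counted. Another circle that ends at 105104463 was read in RPAD 2 alone, so that locus was not absent from the library. For leading Usp3 the nearest were on chromosome 2 from 76692207 to 76694423, at 1.07, with 152, 165, 380 and 750 reads, and on chromosome 19 from 41620365 to 41630191, at 1.19, with 158, 276, 1031 and 722 reads. With 4 libraries these distances are a description of level and direction only.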

How the data were processed

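RNA of differentiated C2C12 cells was depleted of ribosomal RNA, amplified with 17 PCR cycles and sequenced, per the labels' protocols. The submitters' processing notes name cutadapt, TopHat, Cufflinks 2.2.1 and mm9; for the junction caller, name and settings are not given in the sources used here. Each deposited file gives raw counts of back-splice reads per circle of 1 library, per the file headers, and a deposited score of 0 to 3 whose meaning is not stated, used in 1 alternative only. Libraries held 38850 and 35981 (total RNA) and 150478 and 191246 (RPAD) back-splice reads, which are not sequencing depth. Absent circles were given 0 reads. Starts were moved to count from 1.

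Whole-table tests used edgeR 4.0.16 in R 4.3.3 (quasi-likelihood F test, TMM, filterByExpr with minimum count 5 and total 10), with DESeq2 1.42.0 as alternative. Each SE was taken as the size of the log2 fold change over the root of its F statistic and adds nothing to the test. Shares were compared by exact permutation (scipy 1.17.1, Python 3.11.15). Fits were also run on simulated counts, whose spread was set and not taken from these libraries, and no conclusion is drawn from those runs. Other alternatives were scaling, filters, read and score minimums, thinning, a replicate block and leaving out each library. Per host, the text names the leading circle (highest mean reads, scaled to library totals), the next 4 exonic circles, any in both RPAD or all 4 libraries, the 2 top intronic circles and, for each leading circle, the 2 most alike. The members and lists were chosen with earlier results of these data known.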

Additional observations from a re-analysis of the deposited data

How the results depend on the processing

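Counts of calls depended on the tool and on the RPAD libraries. Circles called were 0 with edgeR and 78 with DESeq2, and 0 to 214 with 1 library left out. Host groups called were 0 with edgeR, 179 with DESeq2, 2 with no filter on low counts, and 0 to 623 when leaving out each library in turn. A replicate block gave 0 circles and 2 host groups, with 0 of the 3 hosts among them. Libraries that share a number had deviations correlated at 0.0411 (circles) and 0.0132 (hosts), and no label ties them, so the number was not taken as a pairing.

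The share of Usp3 on its leading circle (RPAD minus total RNA) ran from -26.4 to 1.62 points with 1 library left out, and its listed exonic circles from -0.5 to 2.5. The Usp3 share of exonic reads differed by 0.0234 points, -0.0329 with at least 2 reads per circle, -0.201 with at least 5 and -0.456 to 0.503 with 1 library left out. The listed number for Ankib1 went from -0.5 to 0.5 with at least 5 reads. The Ankib1 share on its leading circle kept its direction, at 12.4 to 14.0 points with 1 library left out.

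Log2 fold changes that changed sign were those of leading Usp3 (0.037 with DESeq2, 0.49 with no filter on low counts, -1.37 to 0.50 with 1 library left out), of the Usp3 host (0.14 with DESeq2 and 0.14 without the filter, 0.12 with exonic circles alone, -1.03 to 0.61), of the Ankib1 circle of exons 2 to 10 (0.11 without the filter, -8.53 to 0.46) and of that of exons 2 to 4 (-0.45 to 1.79). The cause was not tested. Without RPAD 1, the leading-circle and intronic shares of Trim24 had no value. Depth limits circles with few reads in total RNA.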
